A study of Mus musculus with 10 samples.

Results

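Classic target genes of the glucocorticoid receptor were examined in femurs of male ICR mice aged 6 months, an outbred strain, after 24 h of hindlimb unloading. The list named 10 genes: Tsc22d3, Fkbp5, Sgk1, Zbtb16, Klf9, Klf15, Errfi1, Dusp1, Cebpd and Hsd11b1. A probe belonged to a gene when its name in the array files was that symbol (also Sgk for Sgk1) or its accession belonged to the gene, which gave 16 of 41174 gene probes and 9 of 19505 named genes; Zbtb16 is not analysed here. Unloaded mice (5 animals) hung by a taped tail, head down and free to move about the cage, so that the hind legs bore no weight, and control mice (5 animals) moved freely. All 10 mice were housed singly under a reversed light-dark cycle; the labels name no drug, hormone or genetic change in either group, and the clock hour of collection is not given in the sources used here. Each animal gave 1 Agilent one-colour array of femur RNA, so the replicates are separate animals.

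Glucocorticoids are steroid hormones of the adrenal cortex that rise with stress and with the daily rhythm. The hormone enters the cell, frees its receptor from a chaperone complex, and the receptor moves to the nucleus, binds DNA at inverted repeats called glucocorticoid response elements, and switches on a set of genes shared by many tissues. In bone, glucocorticoids are known for restraining osteoblasts, and in marrow for their effects on lymphocytes and on fat cell formation. The genes described here are widely used as readouts of that receptor. Some of them dampen other signals (Tsc22d3, Errfi1, Dusp1), some handle the hormone or carry its signal on (Fkbp5, Hsd11b1, Sgk1), and some are transcription factors (Klf9, Klf15, Cebpd).

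The sequences before the genes' starts show how far the receptor's motif and 2 other response motifs lie close to the start. RefSeq (build GRCm38.p6) gave 16 starts for 8 of the genes, and the 250 bases before each start were searched on both strands. The receptor's inverted repeat was searched as 13 bases (GNACA and TGTNC around 3 free bases) and, more loosely, as its core ACANNNTGT; the core lies inside the longer motif, and a single arm was searched as AGAACA. The cyclic AMP response element was searched as TGACGTCA and the E-box, a site bound by clock and Myc-type factors, as CACGTG. The 13-base repeat was found before 1 of the 16 starts, a start of Sgk1, and in 0.387% of all 32851 RefSeq windows of that length. The core stood before 2 starts, both of Sgk1, against 5.84% of all windows. The arm stood before 4 starts, of Sgk1 and Tsc22d3, against 16.1% of all windows. The cyclic AMP element stood before 2 starts, of Errfi1 and Dusp1, against 1.55% of all windows, and the E-box before 4 starts, of Klf15, Sgk1, Dusp1 and Fkbp5, against 6.02%. The windows of Klf9 and Hsd11b1 held none of these letters. A match is a description of the letters and not a sign of binding. The windows shown are those of each gene with the most matches, read 5′ to 3′ towards the start; capitals mark the matches to these motifs:
Sgk1 (chr10:21993640-21993889, plus strand): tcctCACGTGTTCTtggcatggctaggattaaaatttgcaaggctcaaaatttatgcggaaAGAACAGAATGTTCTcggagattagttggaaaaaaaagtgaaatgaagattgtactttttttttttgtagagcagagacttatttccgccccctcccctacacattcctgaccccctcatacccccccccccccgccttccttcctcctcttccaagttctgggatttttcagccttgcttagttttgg
Tsc22d3 (chrX:140600523-140600772, minus strand): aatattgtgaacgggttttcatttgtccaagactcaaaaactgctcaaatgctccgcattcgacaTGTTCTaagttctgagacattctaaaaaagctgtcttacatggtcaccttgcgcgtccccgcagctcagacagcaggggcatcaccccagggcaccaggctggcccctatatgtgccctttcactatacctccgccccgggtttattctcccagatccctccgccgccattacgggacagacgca
Errfi1 (chr4:150854820-150855069, plus strand): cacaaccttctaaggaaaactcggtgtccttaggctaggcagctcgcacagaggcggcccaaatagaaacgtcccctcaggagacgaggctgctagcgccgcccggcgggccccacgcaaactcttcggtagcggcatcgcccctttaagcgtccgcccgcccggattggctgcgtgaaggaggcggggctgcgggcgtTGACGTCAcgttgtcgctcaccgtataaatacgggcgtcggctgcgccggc
Dusp1 (chr17:26508473-26508722, minus strand): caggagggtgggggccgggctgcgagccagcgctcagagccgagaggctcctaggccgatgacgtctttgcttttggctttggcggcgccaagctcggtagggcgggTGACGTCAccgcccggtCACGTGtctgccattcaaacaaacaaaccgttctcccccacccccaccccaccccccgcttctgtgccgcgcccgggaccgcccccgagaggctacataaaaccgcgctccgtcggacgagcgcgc
Fkbp5 (chr17:28486150-28486399, minus strand): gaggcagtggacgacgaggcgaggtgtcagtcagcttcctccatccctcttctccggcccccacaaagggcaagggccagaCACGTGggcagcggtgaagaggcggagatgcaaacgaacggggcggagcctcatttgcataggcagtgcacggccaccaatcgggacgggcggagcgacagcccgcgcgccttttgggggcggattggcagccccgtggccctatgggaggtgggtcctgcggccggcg
Klf15 (chr6:90462326-90462575, plus strand): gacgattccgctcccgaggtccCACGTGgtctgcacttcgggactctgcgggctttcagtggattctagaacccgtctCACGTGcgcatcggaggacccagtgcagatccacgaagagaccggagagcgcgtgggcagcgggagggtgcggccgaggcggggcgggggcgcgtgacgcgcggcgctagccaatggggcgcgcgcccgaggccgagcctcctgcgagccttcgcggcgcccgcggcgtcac
In the Sgk1 window the repeat runs from base -188 to base -176 before the start, with 2 arms overlapping it. In the Errfi1 window the cyclic AMP element lies at bases -51 to -44, and in the Dusp1 window at -143 to -136 with the E-box at -126 to -121.

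**Figure D1:**
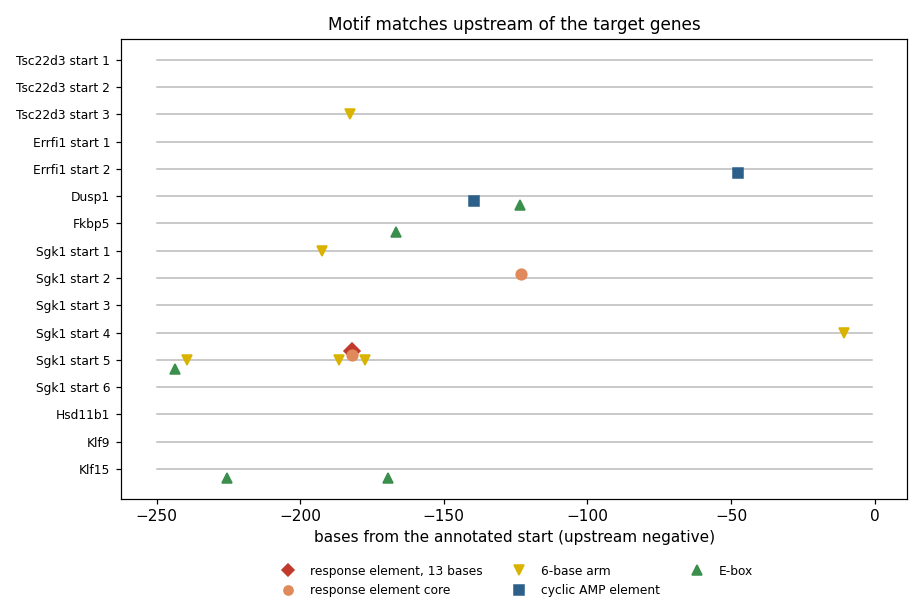
Matches to 5 motifs in the 250 bases before each annotated start of 8 target genes; the horizontal axis is the distance from the start in bases and each row is a start. The 13-base receptor motif appears in a single row, the fifth Sgk1 start, and the cyclic AMP element in the rows of Errfi1 and Dusp1.

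The values below are levels, log2 of the processed signal minus the 75th percentile of the array, and a difference is unloaded minus control on that log2 scale. The 75th percentile lay between 636.5 and 903.3 intensity units before scaling. Between 89.79% (unloaded animal 5) and 95.5% (control animal 3) of gene spots were well above background, with 91.92% in control animal 5. The array of unloaded animal 5 stood apart: its median correlation with the others was 0.9726, against 0.9854 to 0.9882 for the other 9 arrays. Slide 1 held control animals 1 to 4, slide 2 held unloaded animals 1 to 3 with control animal 5, and slide 3 held unloaded animals 4 and 5, so group and slide are largely confounded and slide 2 alone holds both groups. Of the 16 probes, 15 passed the filter on dim spots, and the tested probe with the highest mean stands for a gene; 5 of the 9 genes had more than 1 probe. All 9 genes passed. Of 84 listed markers of 12 bone, marrow and neighbouring cell types, 83 were measured above background, those of osteoblasts, osteocytes, chondrocytes, skeletal muscle, fat and blood lineages included. In bulk RNA, more cells of a type and more RNA per cell cannot be told apart.

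No target gene passed the test over the whole table (limma adjusted p below 0.05 for 0 of 9 genes and 0 of 15 probes, where 1 of 38629 probes, 0.00259%, and 1 of 18955 genes, 0.00528%, passed); the members' adjusted p lay between 0.218 and 0.943. All 9 genes had a positive difference, with a median of 0.28 against 0.05 over 18955 genes, 60.4% of which were positive. With the median of each array as the scaling in place of the 75th percentile, 7 of 9 were positive, Sgk1 and Hsd11b1 being negative, and 43.9% of all probes were positive against 62.6% in the scaling used here. At an unadjusted p below 0.05, 5 of 9 genes were higher (Tsc22d3, Errfi1, Dusp1, Klf9 and Klf15) and 0 were lower, against 9.9% of all genes higher and 5.87% lower. At that p 8 of their 15 probes were higher, with every tested probe of Tsc22d3 among the 8, and 0 were lower. Over all probes 10.2% were higher and 5.92% lower. That background split depends on the scaling: 3939 probes were higher and 2286 lower here, against 1386 higher and 4474 lower with median scaling, 2095 and 2938 with quantile normalization, 2027 and 2953 with cyclic loess and 1364 and 1866 with normexp background correction. Which target genes reach an unadjusted p below 0.05 depends on the processing too. With median scaling Klf9 and Klf15 dropped out, with differences of 0.18 and 0.20. Klf15 alone dropped out with quantile normalization (0.20), cyclic loess (0.19) and normexp background correction (0.23). With the mean of a gene's probes Klf9 (0.11) and Klf15 (0.16) dropped out and Fkbp5 (0.21) came in. For 0 of 9 genes did all 5 unloaded animals lie above all 5 controls, which held for 1.5% of all genes. The genes were chosen with results of these arrays known, so these counts describe them and are no test of the list.

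**Figure D2:**
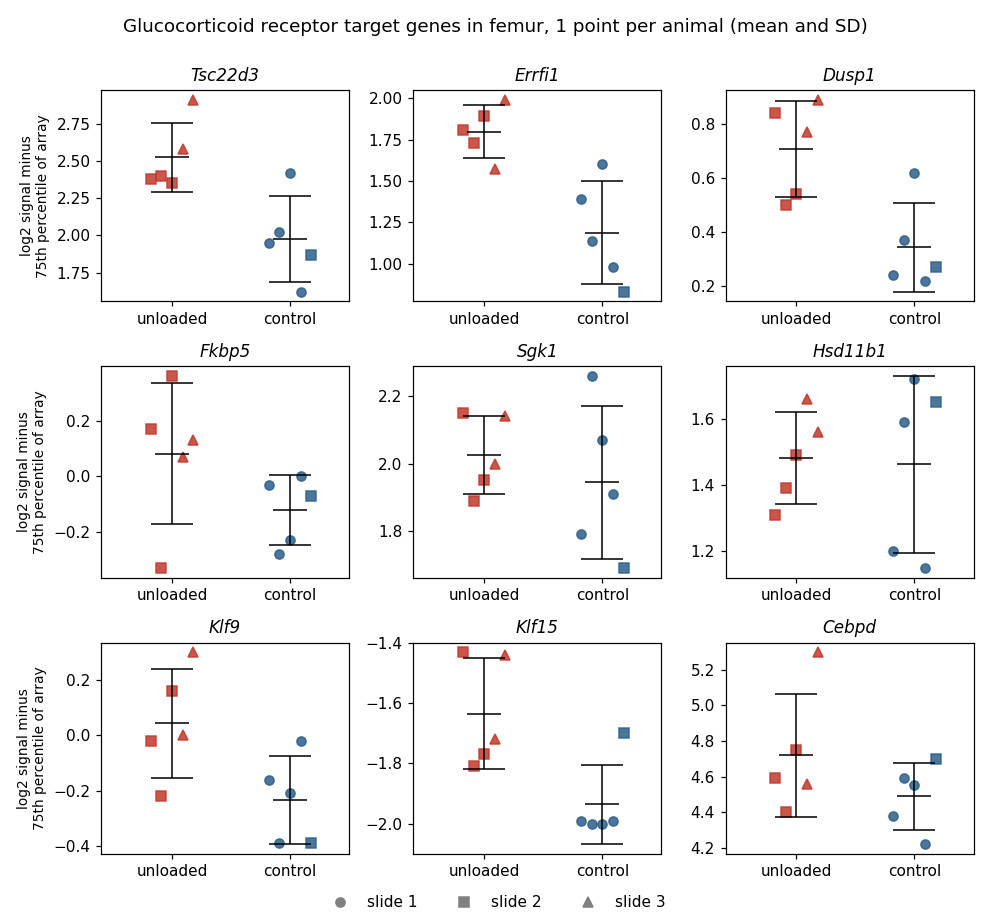
Level of each of the 9 target genes (log2 signal minus the 75th percentile of the array) in unloaded and control femurs, 1 point per animal, with mean and SD; marker shape gives the slide. Errfi1 shows 4 of 5 unloaded animals above the highest control, while the groups of Sgk1 and Hsd11b1 overlap throughout.

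Tsc22d3 encodes the glucocorticoid-induced leucine zipper, which binds and restrains NF-kB and AP-1. Its level was 2.38, 2.40, 2.35, 2.58 and 2.91 in unloaded animals 1 to 5, against 1.95, 2.02, 2.42, 1.62 and 1.87 in control animals 1 to 5. Control 3 lay above 3 of the unloaded animals, and unloaded 5 was the highest of all. The means were 2.52 ± 0.23 in unloaded and 1.98 ± 0.29 in control femurs (SD, n = 5 each), a difference of 0.55 or 1.46-fold (SE 0.15, 95% interval 0.23 to 0.87, limma adjusted p = 0.218). By p it ranked 208 among 18955 genes. A further 2 probes of Tsc22d3 gave the same direction. On A_51_P235816 the difference was 0.55 (interval 0.22 to 0.88). On A_52_P600518 the levels were 0.80, 0.79, 0.97, 1.16 and 1.27 in unloaded animals, against 0.47, 0.33, 0.67, -0.01 and 0.30 in control animals. Here all 5 unloaded animals lay above all 5 controls, as for 1.51% of all probes, and the difference was 0.65 (1.56-fold, interval 0.35 to 0.94, limma adjusted p = 0.192). It was the 1 tested probe of 15 whose groups did not overlap. Within slide 2 the gene's difference was 0.51 with a single control, and without unloaded 5 it was 0.45.

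Errfi1 encodes a feedback inhibitor that binds the activated EGF receptor. Its level was 1.81, 1.73, 1.89, 1.57 and 1.99 in unloaded animals, against 1.39, 1.14, 1.60, 0.98 and 0.83 in control animals. Only unloaded 4, at 1.57, lay below the highest control, control 3 at 1.60. The difference was the largest of the 9 genes, at 0.61 or 1.52-fold (means 1.80 ± 0.16 in unloaded and 1.19 ± 0.31 in control femurs; SE 0.14, interval 0.30 to 0.91, limma adjusted p = 0.218). Errfi1 ranked 55 among 18955 genes by p. Control 5 was the lowest value, so the difference within slide 2, which rests on that control, was larger, at 0.98; without control 5 it was 0.52.

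Dusp1 encodes a phosphatase that switches off the MAP kinases p38 and JNK, a route by which glucocorticoids damp inflammation. Its level was 0.84, 0.50, 0.54, 0.77 and 0.89 in unloaded animals, against 0.24, 0.37, 0.62, 0.22 and 0.27 in control animals. Of the unloaded animals, 3 lay above control 3, the highest control, and 4 controls lay below every unloaded animal. The means were 0.71 ± 0.18 in unloaded and 0.34 ± 0.16 in control femurs (SD, n = 5 each), with a difference of 0.36 or 1.29-fold (SE 0.11, interval 0.12 to 0.61, limma adjusted p = 0.243). The difference was also 0.36 within slide 2 and 0.32 without unloaded 5. In these 3 genes that dampen signalling, control 3 was each time the highest control.

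**Figure D3:**
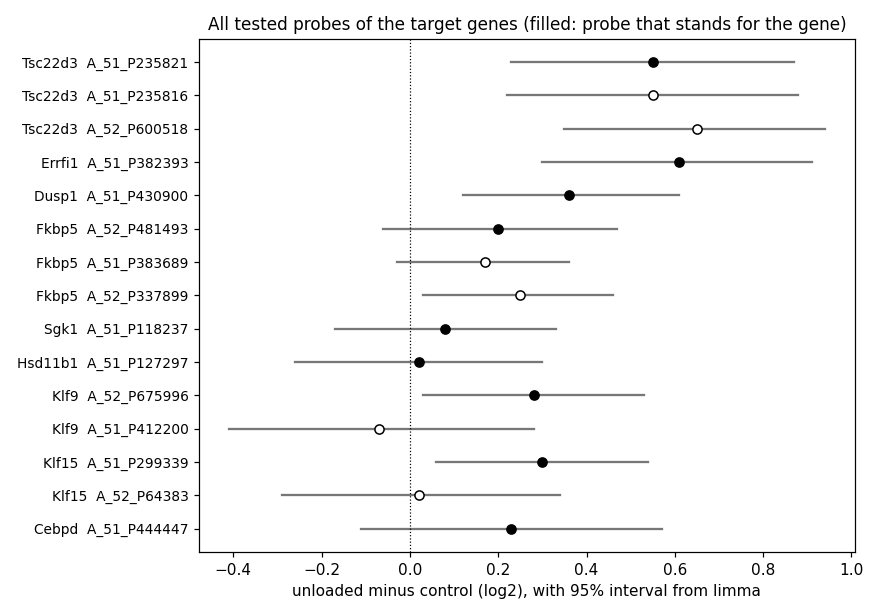
Difference between unloaded and control femurs (log2, horizontal axis) with its 95% interval from limma for the 15 tested probes of the target genes; filled points mark the probe that stands for the gene. The 3 Tsc22d3 intervals lie above 0, from 0.22 upwards, while the second probe of Klf9 lies at -0.07 and that of Klf15 at 0.02.

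Fkbp5 encodes a co-chaperone that binds the unliganded receptor complex and lowers its affinity for hormone, closing a feedback loop. Its level was 0.17, -0.33, 0.36, 0.07 and 0.13 in unloaded animals, against -0.03, -0.28, -0.23, 0.00 and -0.07 in control animals. Of the unloaded animals 4 lay above every control, and unloaded 2 was the lowest of the 10 animals. The difference was 0.20 or 1.15-fold (SE 0.12, interval -0.06 to 0.47, limma adjusted p = 0.399). The other 2 probes gave 0.17 (interval -0.03 to 0.36) and 0.25 (interval 0.03 to 0.46), so the 3 probes shared direction and size. On the probe with the larger value, A_52_P337899, the level was -1.32, -1.76, -1.40, -1.36 and -1.40 in unloaded animals, against -1.73, -1.60, -1.68, -1.77 and -1.71 in control animals. On that probe unloaded 2 lay within the controls and the other 4 above all of them. Without unloaded 2 the difference of the probe that stands for the gene was 0.30.

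Hsd11b1 encodes the enzyme that regenerates active glucocorticoid from its inert keto form inside cells. Its level was 1.31, 1.39, 1.49, 1.66 and 1.56 in unloaded animals, against 1.20, 1.59, 1.72, 1.15 and 1.65 in control animals. The groups overlapped throughout, and the controls spanned a wider range than the unloaded animals. The difference was 0.02 (interval -0.26 to 0.30, limma adjusted p = 0.943), and within slide 2 it was -0.26.

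Sgk1 encodes a kinase that acts on ion channels and transporters and shares substrates with Akt. Its level was 2.15, 1.89, 1.95, 2.00 and 2.14 in unloaded animals, against 1.79, 2.26, 2.07, 1.91 and 1.69 in control animals. Control 2 was the highest and control 5 the lowest of the 10 animals, with the unloaded group between them. The difference was 0.08 (interval -0.17 to 0.33, limma adjusted p = 0.720), 0.31 within slide 2 and -0.02 under median scaling. A second Sgk1 probe, A_52_P352246, was well above background on 3 of 5 arrays in each group and was not tested.

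Klf9, a zinc finger repressor of the Krüppel-like family, had levels of -0.02, -0.22, 0.16, 0.00 and 0.30 in unloaded animals, against -0.16, -0.39, -0.21, -0.02 and -0.39 in control animals. Control 4 equalled unloaded 1, and 3 unloaded animals lay above every control. The difference was 0.28 or 1.21-fold (SE 0.12, interval 0.03 to 0.53, limma adjusted p = 0.283). The second Klf9 probe, A_51_P412200, designed to the same transcript record, gave -0.07 (interval -0.41 to 0.28), and the mean of the probes gave 0.11. The direction of Klf9 therefore rests on which probe is read.

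Klf15, a Krüppel-like factor that drives amino acid breakdown in muscle and liver, had levels of -1.43, -1.81, -1.77, -1.72 and -1.44 in unloaded animals, against -1.99, -2.00, -2.00, -1.99 and -1.70 in control animals. Controls 1 to 4 lay below every unloaded animal and within 0.01 of each other, and control 5 lay among the unloaded animals. The difference was 0.30 or 1.23-fold (SE 0.11, interval 0.06 to 0.54, limma adjusted p = 0.258). Controls 1 to 4 are the arrays of slide 1. Within slide 2, which holds control 5, the difference was 0.02. The second probe, A_52_P64383, gave 0.02 (interval -0.29 to 0.34), and the mean of the probes 0.16.

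Cebpd encodes a transcription factor of the acute-phase response and of early fat cell differentiation. Its level was 4.59, 4.40, 4.75, 4.56 and 5.30 in unloaded animals, against 4.38, 4.59, 4.55, 4.22 and 4.70 in control animals. Unloaded 5 stood well above all the others, which overlapped. The difference was 0.23 (interval -0.11 to 0.57, limma adjusted p = 0.439), and 0.08 without unloaded 5. Within slide 2 it was -0.12.

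The 9 genes did not differ equally in every animal. The median of their deviations from the control means was 0.29, 0.02, 0.26, 0.22 and 0.54 in unloaded animals 1 to 5, against -0.06, 0.03, 0.13, -0.13 and -0.07 in control animals 1 to 5. Unloaded 2 lay below controls 2 and 3, and the other 4 unloaded animals lay above all controls. Unloaded 5 held the highest value of the 10 animals for 5 of the 9 genes (Tsc22d3, Errfi1, Dusp1, Klf9 and Cebpd), and it is the array that correlated least with the others. Without it the median difference over the 9 genes was 0.22, and 8 of 9 were positive. Control 4 held the lowest value for 4 genes and control 5 for 3.

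**Figure D4:**
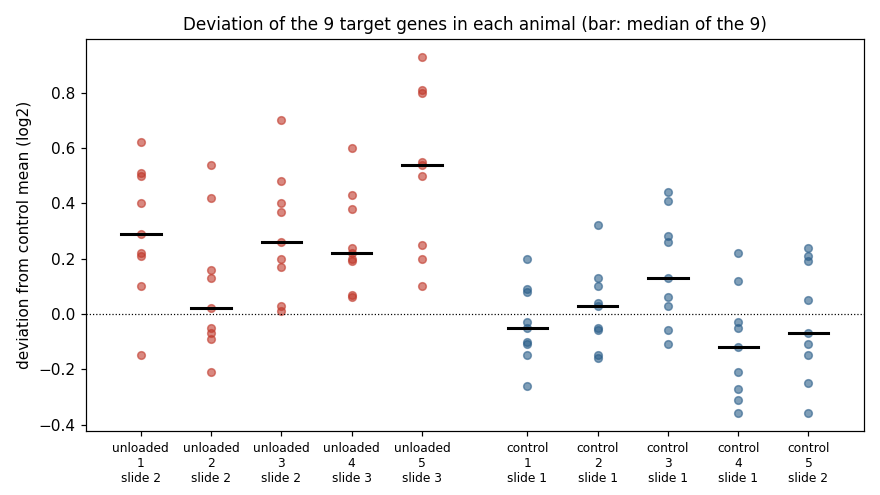
Deviation of the 9 target genes from their control means (log2, vertical axis) in each animal, with the median of the 9 as a bar. The medians of unloaded animals 1, 3, 4 and 5 lie between 0.22 and 0.54 and that of unloaded 2 at 0.02, against -0.13 to 0.13 in the control animals.

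The receptor and the proteins that handle hormone and receptor had mostly negative differences. Of 17 such genes 13 were negative and 4 positive, where 60.4% of all genes were positive. Their median was -0.11 against 0.05 over all genes, and 0 passed the test over all probes. At an unadjusted p below 0.05, 4 were lower and 0 higher, against 5.87% of all genes lower and 9.9% higher. These background shares depend on the scaling, as given above. Nr3c1, the glucocorticoid receptor itself, had levels of 1.17, 1.31, 1.00, 0.99 and 0.97 in unloaded animals, against 1.25, 1.39, 1.31, 1.43 and 1.26 in control animals. Unloaded 2 lay among the controls and the other 4 below all of them, giving -0.24 (SE 0.10, interval -0.44 to -0.03, limma adjusted p = 0.278), with 3 of 4 probes on that side. The difference of Nr3c1 was -0.14 as the mean of its probes and -0.10 with slide as a fixed block. Nrip1 and Ncor1, corepressors of nuclear receptors, had -0.31 (SE 0.12) and -0.48 (SE 0.21), and Stip1, a co-chaperone of the receptor complex, had -0.33 (SE 0.14). Without unloaded 5 Ncor1 was -0.24 and Stip1 -0.20. Ncor1 was -0.15 as the mean of its 7 probes, 5 of which lay on that side, and with slide as a fixed block Ncor1 was -0.08 and Nrip1 -0.12. Stip1 was -0.21 with body weight as a covariate. Nr3c2, the mineralocorticoid receptor, which also binds glucocorticoid, had 0.01 (interval -0.18 to 0.20). Hsd11b2, the enzyme that inactivates the hormone, had 0.05 (interval -0.24 to 0.34), and both turned negative under median scaling, quantile normalization and cyclic loess.

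Among 36 further genes that glucocorticoids are known to induce, 21 were positive and 15 negative, with a median of 0.03 against 0.05 over all genes. At an unadjusted p below 0.05, 6 were higher and 3 lower, against 9.9% of all genes higher and 5.87% lower. Ddit4, an inhibitor of mTOR signalling, was the 1 gene that passed over all probes. It had levels of 4.86, 4.32, 4.84, 4.80 and 4.82 in unloaded animals, against 3.57, 3.45, 3.82, 3.48 and 3.46 in control animals, 1.17 higher (2.26-fold, limma adjusted p = 0.00794). Unloaded 2 was the lowest of the unloaded animals here too, and the groups did not overlap, with unloaded higher, as for 1.5% of all genes. That call was lost without unloaded 4, control 4 or control 5 (limma adjusted p from 0.0502 to 0.0529), with body weight as a covariate (0.0511) and with slide as a fixed block (0.267), while the difference lay between 1.08 and 1.28 over all alternatives. Per1, a clock gene with known receptor sites, had 0.92 (1.89-fold, limma adjusted p = 0.153), and its groups did not overlap either. Cebpb, the partner of Cebpd, had 0.46 (SE 0.15), or 0.32 as the mean of its probes. Foxo1, a transcription factor under insulin control, had -0.39 (SE 0.12), or -0.20 with slide as a fixed block.

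Of 23 inflammatory genes tested that glucocorticoids are known to repress, 16 were positive and 7 negative, where 60.4% of all genes were positive. Their median was 0.11 against 0.05 over all genes, and 0 passed over all probes. At an unadjusted p below 0.05, 4 were higher and 1 lower, against 9.9% of all genes higher and 5.87% lower. Il6, an inflammatory cytokine, had levels of -2.76, -3.12, -2.76, -2.91 and -2.70 in unloaded animals, against -3.30, -3.24, -3.36, -3.17 and -3.24 in control animals. All 5 unloaded animals lay above all controls, which held for 1.5% of all genes. The difference was 0.41 (SE 0.10, limma adjusted p = 0.218). Il6 lay low on the arrays, and with normexp background correction its difference was 0.18. The chemokine Ccl2 had 0.28 (SE 0.09), also without overlap, and the chemokine Cxcl1 had 0.35 (SE 0.13). Tnf, the cytokine tumour necrosis factor, had -0.29 (SE 0.11). With slide as a fixed block Cxcl1 was 0.14 and Tnf -0.17.

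Relatives of the target genes had mostly negative differences. Among 33 same-family genes (TSC22, FKBP, SGK, Krüppel-like, DUSP and C/EBP), 7 were positive and 26 negative, where 60.4% of all genes were positive. Their median was -0.07, and 0 passed over all probes. At an unadjusted p below 0.05, 0 were higher and 2 lower, against 9.9% of all genes higher and 5.87% lower. Fkbp3, a nuclear FK506-binding protein, had -0.23 (SE 0.09) with all 5 unloaded animals below the controls, which held for 1.8% of all genes. Klf10, a TGF-beta-induced factor, had -0.26 (SE 0.11), Klf8 0.17 (SE 0.11) and Klf3 -0.15 (SE 0.11). With slide as a fixed block Klf10 was -0.01. Without unloaded 5 Klf8 was 0.11 and Klf3 -0.07, and over all alternatives they ranged from 0.08 to 0.22 and from -0.25 to -0.07. Of 12 proteins on which the target genes' products act, 5 were positive and 7 negative, and none passed or reached an unadjusted p below 0.05. In that list Egfr and Erbb3, receptors that Errfi1 inhibits or whose family it inhibits, had 0.30 (SE 0.16) and 0.18 (SE 0.09). Egfr was 0.16 without unloaded 5, 0.11 as the mean of its 6 probes and 0.48 with slide as a fixed block, and Erbb3 was 0.09 with median scaling. Mapk14, the p38 kinase that Dusp1 switches off, had -0.27 (SE 0.14), and Scnn1a, a sodium channel subunit under Sgk1, had -0.21 (SE 0.13). Without unloaded 5 Mapk14 was -0.15 and Scnn1a -0.11. Mapk14 was also -0.15 with slide as a fixed block and with body weight as a covariate, and Scnn1a was -0.11 as the mean of its probes. Of 7 enzymes of amino acid breakdown linked to Klf15, 3 were positive and 4 negative, with a median of -0.01. Gpt, an alanine aminotransferase, had -0.30 (SE 0.12), and Bckdha, Dbt and Bcat2, of branched-chain amino acid breakdown, had 0.16, 0.08 and 0.09. Gpt was -0.15 with slide as a fixed block and -0.19 with body weight as a covariate. Bckdha ranged from -0.21 to 0.26 over all alternatives, Dbt from -0.03 to 0.18 and Bcat2 from -0.01 to 0.14.

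Markers of other cell types were read beside these genes, and 0 of the 83 tested passed over all probes. The summed level of the 6 chondrocyte markers, as signal relative to the 75th percentile, ranged from 98.4 to 179 in unloaded and from 86.1 to 154 in control animals. The sums, here and below, are of linear signal, so genes at high levels weigh most in them. Examples are Col2a1 of the chondrocyte markers and Col1a1 and Col1a2 of the osteoblast markers. All 6 chondrocyte differences were positive, with a median of 0.28, the same as that of the 9 target genes. Over all genes, for this list and those below, 60.4% were positive and the median was 0.05. The 6 osteocyte markers summed to 24.7 to 32.3 in unloaded and 17.3 to 26.4 in control animals, again with 6 of 6 positive and a median of 0.06. Among these Mepe, a matrix protein of osteocytes, had 0.55 (SE 0.17, limma adjusted p = 0.240). Its unloaded animals all lay above the controls, which held for 1.5% of all genes. Ccr2 of the monocyte markers (-0.30) and Csf3r of the neutrophil markers (-0.48) lay without overlap in the other direction, as for 1.8% of all genes. Of 2 tested Ccr2 probes 1 lay on that side. Mepe, Ccr2 and Csf3r were singled out after their values were seen. Osteoblast and osteoclast markers were positive for 6 of 7 genes each, with medians of 0.08 and 0.13. The osteoblast markers measured on all arrays summed to 388 to 428 in unloaded and 345 to 401 in control animals, and the osteoclast markers to 65.7 to 120 in unloaded and 68.4 to 89.1 in control animals. The summed level of the 8 skeletal muscle markers ranged from 135 to 282 in unloaded and from 124 to 281 in control animals, with 7 of 8 differences negative. That of the 7 adipocyte markers ranged from 63.6 to 103 in unloaded and from 56.5 to 121 in control animals, with 7 of 7 negative. The 7 monocyte and macrophage markers summed to 177 to 191 in unloaded and 186 to 195 in control animals, with 6 of 7 negative. Most of that sum was Lyz2, the 1 positive marker, at a mean level of 7.24 in unloaded and 7.22 in control animals. The 8 T and NK cell markers summed to 10.7 to 12.1 in unloaded and 9.47 to 13 in control animals. Of these 8 markers 6 were positive, and 4 were higher at an unadjusted p below 0.05, against 9.9% of all genes. Of those 4, Cd8b1 and Klrb1c each had a further tested probe with a difference of the other sign. At that p 3 of 7 monocyte and macrophage markers and 2 of 8 skeletal muscle markers were lower, against 5.87% of all genes. The 3 were Cx3cr1, Ccr2 and Mpeg1, and for each of them 1 of 2 tested probes lay on that side. Each other marker list held at most 1 gene at that p. B cell markers were negative for 5 of 7 genes, endothelial markers for 5 of 6, neutrophil markers for 4 of 8 and erythroid markers for 3 of 6. The part of these cell types in the target genes' differences was not tested.

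Among 17722 genes measured on all arrays and outside the list, the 5 whose values most resembled the mean profile of the 9 target genes over the 10 arrays were Zfp185 (Pearson r 0.96), Sema3e (0.95), Acpp (0.93), Schip1 (0.92) and Tgm4 (0.92). Without unloaded 5 these r lay between 0.86 and 0.95. They are the extremes of many genes compared on 10 arrays and are given as a description. Their own differences ranged from 0.14 to 0.36, with limma adjusted p between 0.218 and 0.382.

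**Figure D5:**
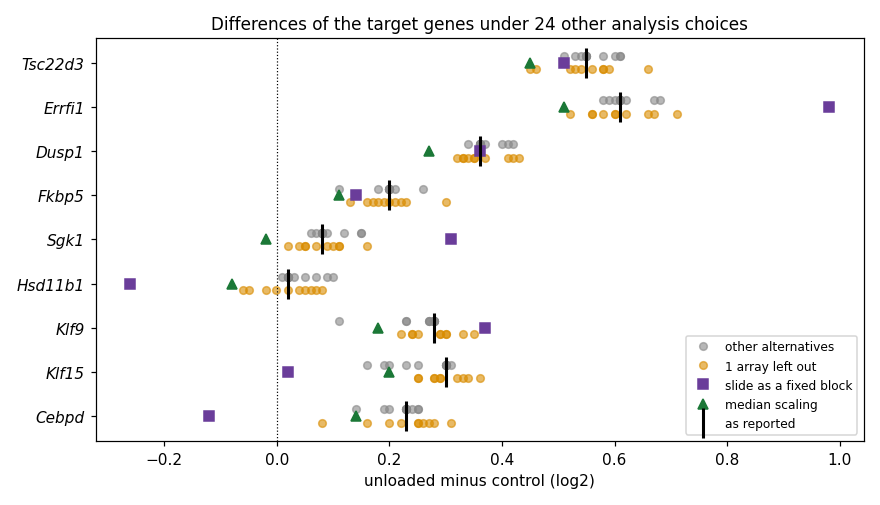
Difference of each target gene between unloaded and control femurs (log2, horizontal axis) as reported and under 24 other analysis choices. Errfi1, Tsc22d3 and Dusp1 stay at or above 0.27 under all choices shown, while Hsd11b1 falls on both sides of 0, Cebpd is negative with slide as a fixed block and Sgk1 with median scaling.

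Of the 9 genes, Errfi1 lay between 0.51 and 0.98, Tsc22d3 between 0.45 and 0.66 and Dusp1 between 0.27 and 0.43 over the 24 alternatives, as the plot of alternatives shows. Fkbp5 lay between 0.11 and 0.30, Klf9 between 0.11 and 0.37 and Klf15 between 0.02 and 0.36. None of the 9 passed the test over all probes under any of these alternatives, the smallest adjusted p being 0.111 for Errfi1 and Dusp1.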

How the data were processed

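Femur RNA of 10 animals was read in a single colour, Cy3, on 1 Agilent array per animal. The deposited values are linear spot intensity, which the authors extracted with Agilent Feature Extraction 9.1.3.1 on design 014868, with spatial and multiplicative detrending and no scaling between arrays, per the file headers; no genome build is given in the sources used here. The deposited value table held the same intensity to within ratios of 0.995 to 1.005, with column medians of 253 to 335; it was uncentred and was used as an alternative. Control spots and 97 outlier spots over all arrays were left out, spots of a probe were averaged as log2, and each array's 75th percentile was subtracted. A probe was tested if at least 4 of 5 arrays in either group had it well above background and each group had at least 3 measured arrays. Names came from RefSeq's annotation of GRCm38.p6, used for names alone (22951 by accession, 3109 by an older name, 6659 by a current name, 8455 as in the file). The test of unloaded against control was that of limma 3.58.1 (two-sided, lmFit and eBayes, without covariates; R 4.3.3), with p-values adjusted by Benjamini-Hochberg over 38629 probes, and called below 0.05. Plots were made with matplotlib 3.10.9. The procedure was tested on simulated data with independent noise for each probe. Those data held no slide effect and no array that stood apart. The members and gene lists were chosen with earlier results of these data known. Named by rule were all members, up to 4 genes of each list by smallest p, Nr3c1, Nr3c2, Hsd11b2, Ddit4 and Per1, and the 5 genes most like the members' mean, passing over clone and prediction names. Same-numbered animals of the groups did not deviate together (correlations from -0.14 to 0.18). Alternatives covered background, scaling, filter, value table, variance model, slide, body weight, replicate number, probe choice and each array left out. The number of arrays limits the precision.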

Additional observations from a re-analysis of the deposited data

Results flagged for a closer look

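The Klf15 level of control animal 5, at -1.70, stood apart from the other 4 controls, the nearest of which lay at -1.99 and the farthest at -2.00, so that the gap made up 0.958 of the group's range, above Dixon's 95% critical value for 5 samples. It was the 1 flag among 18 groups examined (9 genes in unloaded and in control animals), about as many as the 1 in 20 that chance gives. Control 5 is the control on slide 2; whether slide has a part in it was not tested.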

How the results depend on the processing

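Over 24 alternatives, the 9 target genes kept their sign and stayed below the threshold of significance in 208 of 216 values and turned sign in 8. Median scaling turned Hsd11b1 to -0.08 and Sgk1 to -0.02, and slide as a fixed block, which rests on slide 2 and its single control, turned Hsd11b1 to -0.26 and Cebpd to -0.12. With single arrays left out, Hsd11b1 ranged from -0.06 to 0.08, turning negative without unloaded 4, unloaded 5 (-0.00062), control 1 or control 4. The number of positive genes was 7 to 9 over all alternatives, and 8 or 9 with single arrays left out; the median difference of the 9 genes lay between 0.18 and 0.34. Median scaling shifted the median of all probes to -0.03, against 0.07. The number of probes called was 3 with intensity trend and robust variance, 3 with slide as a fixed block, 0 with body weight, and 0 to 2 with single arrays left out (0 without unloaded 4, control 4 or control 5, and 2 without control 2). Of 26 other genes named, 22 of 624 values turned sign. Nr3c2, Hsd11b2 and Dbt did so with normexp (-0.0044, -0.01 and -0.0019), median scaling (-0.08, -0.05 and -0.01), quantile normalization (-0.09, -0.06 and -0.02) and cyclic loess (-0.10, -0.06 and -0.03). Bcat2 was -0.01 with median scaling. With slide as a fixed block Bckdha was -0.21, Hsd11b2 -0.39 and Nr3c2 -0.09, and with body weight Hsd11b2 was -0.02. Single arrays left out gave -0.04 to 0.15 for Hsd11b2 and -0.02 to 0.03 for Nr3c2. With the replicate block the number of probes called stayed at 1, 9 genes were positive and the median difference was 0.28; the numbers name different animals, and no unloaded animal correlated best with its own number. Slide as a random block found a correlation of -0.03 within slides. The cause of these shifts was not tested.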
